A study of Mus musculus with 9 samples.

Results

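Regulatory T cells (Tregs) sorted from uninjured mouse lungs were compared with Tregs sorted from spleens, as 3 arrays against 3 of the 9 arrays in the series. The comparison took every deposited row that matched 1 gene symbol, which gave 21022 genes. Of these, 7435 had a mean log2 value of 5 or more over the 6 arrays and are called bright below. All mice were Foxp3EGFP reporter animals on the C57BL/6 background, aged 8 to 12 weeks, whose cells fluoresce green where Foxp3 is expressed. Control lungs were uninjured. The spleens came from mice that had received Escherichia coli lipopolysaccharide O55:B5 into the trachea at 3 mg/kg, as had the mice of the third group, whose lungs were resolving the injury. Lungs were digested with enzymes and spleens were dissociated mechanically, after which CD4+ GFP+ cells were sorted. Organ, injury and dissociation therefore differed together, and their shares in any difference below cannot be told apart. Harvest times and the number of mice per array are not given in the sources used here, and 2 of the 3 spleen arrays carry the same description in the labels, although their values differ.

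Tregs are CD4 T cells that depend on the transcription factor Foxp3 and restrain immune responses. Some recirculate through lymphoid organs such as the spleen, and others live in tissues, where they are known to carry the interleukin-33 receptor ST2 (Il1rl1) and to secrete amphiregulin (Areg), a growth factor that acts on epithelium. The transcription factors Batf, Irf4, Gata3 and Prdm1 are known to act in the tissue programme, while Id3, Cxcr5 and Tcf7 are known from Tregs of lymphoid organs.

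The sorted cells carried Treg transcripts in both organs. Foxp3 was measured at 10.63, 10.69 and 10.69 in control lung and at 10.66, 10.67 and 10.74 in spleen, all on the log2 scale. The groups overlapped, and the difference of -0.02 ± 0.08 (SE, n = 3 per group; the same error and n apply below) had an adjusted p of 0.944. Cd4 stood between 10.84 and 11.01 in control lung and between 10.99 and 11.06 in spleen (adjusted p = 0.409). Of the 16 measured T cell identity genes, 2 rose and 0 fell. Cd28, a costimulatory receptor, had a difference of 0.53 whose call was lost in 5 of the 9 fits that left out 1 array in turn (adjusted p up to 0.0649). The mean over the identity list lay between 9.55 and 9.59 in the control lung arrays and between 9.58 and 9.61 in the spleen arrays.

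Arrays of each group stood apart on some genes, among them markers of cells other than T cells. Resolving lung replicate 1 did so most: its mean over macrophage markers was 6.87 against 4.70 in both other resolving lung arrays, and over fibroblast and smooth muscle markers 4.67 against 2.60 and 2.71. It correlated with the other 8 arrays at 0.973 to 0.985, and limma gave it the lowest array weight (0.42, against 0.79 to 1.62). It enters the spread that all groups share, and the comparison of the lungs. Cdh5, a junction protein of endothelium, read 7.22 in control lung replicate 1 against 3.73 and 2.48 in the other control lung arrays. Xist, the transcript of the inactive X chromosome, is no marker of another cell type. It read 2.33 in spleen replicate 1 against 8.89 and 8.91 in the other spleen arrays, and 9.04, 8.23 and 9.08 in control lung. Whether the sex of the mice differed between arrays was not tested. Every call between control lung and spleen named below was therefore refitted with each array left out, and where no such count is given it held in all 9 of these fits. The 6 compared arrays were also fitted alone, which gave 657 rises and 789 falls, and values from that fit are given where a gene below that had not passed did so there, and for the Treg lists whose counts moved most.

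Altogether 1295 genes (6.16% of those tested) differed between control lung and splenic Tregs at an adjusted p under 0.05, 561 of them higher (2.67%) and 734 lower (3.49%) in control lung. Among bright genes 983 passed (13.2%), 466 upward (6.27%) and 517 downward (6.95%). Below a mean of 5, 95 rose (0.699%) and 217 fell (1.6%). The larger differences lay more often upward: 158 bright genes were at least 2-fold higher (2.13%) and 75 at least 2-fold lower (1.01%). The median difference over all genes was 0.003 and over bright genes -0.055. With 1 array left out, between 306 genes (without spleen replicate 3) and 788 (without resolving lung replicate 1) rose and between 368 (without control lung replicate 1) and 1005 (without resolving lung replicate 1) fell. Of the 1295 calls, 508 held in all 9 of these fits, 405 of them among bright genes, and 0 changed sign.

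**Figure D1:**
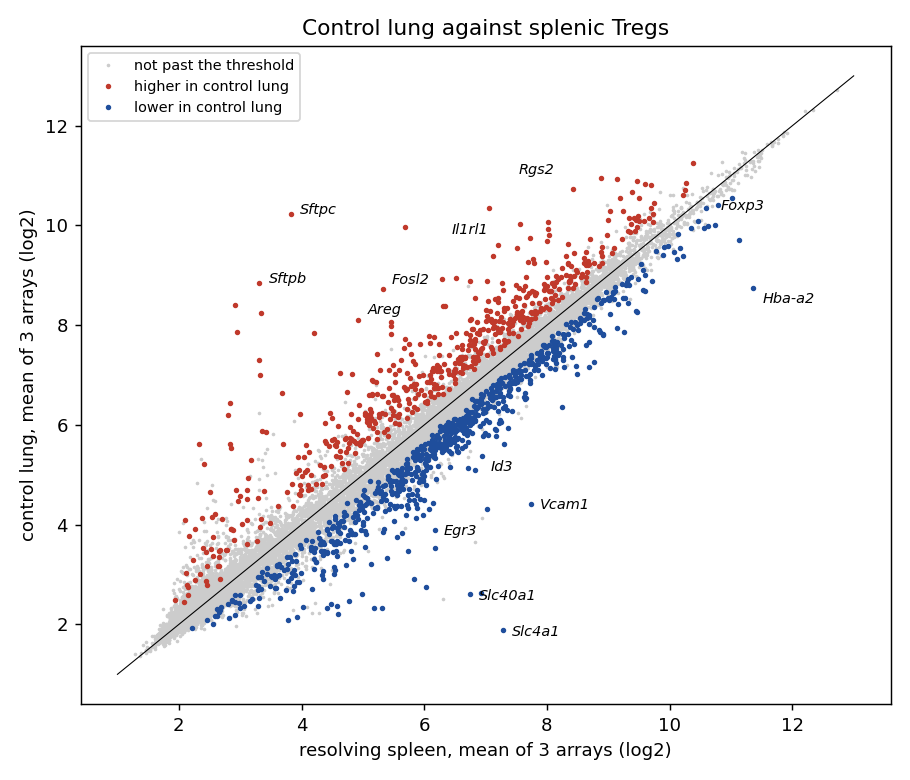
Mean log2 expression of each named gene in splenic Tregs (x axis, 3 arrays) against control lung Tregs (y axis, 3 arrays); red points were higher and blue points lower in control lung at an adjusted p under 0.05, grey points did not pass, and the line marks equal values. Foxp3 lies on the line, surfactant genes such as Sftpc lie farthest above it, and Slc4a1 and Slc40a1 lie farthest below it among the labelled genes.

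The largest rises among bright genes were of lung epithelial transcripts. Sftpc, the surfactant protein made by alveolar type 2 cells, was measured at 11.04, 9.95 and 9.71 in control lung and at 2.75, 3.87 and 4.86 in spleen, a difference of 6.40 ± 0.59 (84.6-fold; adjusted p = 0.00102). The lowest lung array lay far above the highest spleen array. Sftpb and Sftpa1, also surfactant proteins, differed by 5.54 and by at least 5.03. A difference written as "at least" is measured from the dim level, the 95th percentile of 915 olfactory receptor genes, because the gene lay below it in all 3 arrays of the lower group. The phosphate transporter Slc34a2 (4.92), the lung chemokine Cxcl15 (at least 4.48) and the carbonyl reductase Cbr2 (3.64) followed. Scgb1a1, the club cell secretory protein, stood at 10.73, 9.77 and 9.41 in control lung and at 3.41, 6.26 and 7.41 in spleen, so that its signal was well above the dim level in 2 spleen arrays. Its call (4.28 ± 0.91) was lost in 5 of 9 fits, with an adjusted p of up to 0.107.

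Markers of other cells were set beside the Treg genes for that reason. Of 19 measured epithelial markers, 9 rose (47.4%) and 0 fell, against 2.67% and 3.49% of all genes. Their mean level was 5.55 to 6.49 in control lung, 3.39 to 3.90 in spleen and 4.49 to 5.10 in resolving lung. The pan-epithelial markers Epcam (-0.26, adjusted p = 0.33) and Krt19 (0.41, adjusted p = 0.32) did not pass. Cardiac muscle genes gave 4 calls among 12 measured (33.3%), all upward. Their means were 2.67 to 2.97 in control lung and 2.24 to 2.33 in spleen, levels below the dim level of 3.32 to 3.52. Of the called genes, Pln and Mb lay below it in both groups, where no difference can be read. The call of Mb was also lost in 5 of 9 fits (adjusted p up to 0.0793). Myl7 differed by at least 0.53, and Tnnt2 (1.58) was lost in 3 of 9 fits (adjusted p up to 0.0684). With limma, 0 of 18 endothelial markers passed (2 at an unadjusted p under 0.05), with means of 4.53 in control lung replicate 1, 3.05 to 3.21 in the other control lung arrays and 2.94 to 2.99 in spleen. Macrophage markers gave 1 call in 17 (5.88%), the lysozyme gene Lyz1 (at least 2.23, lost in 3 of 9 fits, adjusted p up to 0.0668). The macrophage means of 4.26 to 5.40 in control lung overlapped those of 4.54 to 5.18 in spleen. Of 12 genes of conventional CD4 T cells, 1 rose and 1 fell, and of 8 genes of CD8 T or NK cells 1 rose and 0 fell.

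In the other direction lay markers of red pulp macrophages, red cells and B cells. Of 9 red pulp macrophage genes, 5 fell (55.6%) and 0 rose, against 3.49% and 2.67% of all genes. Their means were 3.96 to 4.20 in control lung, 4.37 to 5.16 in resolving lung and 5.67 to 6.56 in spleen. Slc40a1, the iron exporter ferroportin, was measured at 2.74, 2.71 and 2.36 in control lung and at 7.51, 6.32 and 6.41 in spleen, and was lower by at least 3.33 on the log2 scale (adjusted p = 0.000443). Vcam1, an adhesion ligand for integrins, stood at 4.82, 4.40 and 4.05 against 8.33, 7.26 and 7.63, and Hmox1, which degrades haem, fell by 2.72. Spic, the transcription factor of red pulp macrophages, was lower by at least 2.42 on the log2 scale. Erythroid genes gave 3 falls in 11 (27.3%). Their means were 3.43 to 4.07 in control lung and 5.08 to 5.80 in spleen, which the 4.07 to 5.21 of resolving lung overlapped. Among the falls were the band 3 anion exchanger Slc4a1 (lost in 3 of 9 fits, adjusted p up to 0.0532) and the haemoglobin gene Hba-a2 (lost in 6 of 9, up to 0.138), whose near-identical copies may share its probes. In resolving lung Hba-a2 stood at 10.39, 11.99 and 10.54, against 11.44, 11.48 and 11.18 in spleen, so its level was not particular to spleen. Carbonic anhydrase Car1, abundant in red cells, was lower by at least 2.62 on the log2 scale. B cell genes gave 3 falls in 16 (18.8%), among them the complement receptor Cr2 (-2.63) and the inhibitory receptor Cd22 (-1.58). Their means were 4.72 to 4.92 in control lung, 4.29 to 4.55 in resolving lung and 5.21 to 6.23 in spleen. In these bulk samples fewer cells of a type and less RNA per cell cannot be told apart, and the part of these other cells in the differences of genes they share with Tregs was not tested.

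**Figure D2:**
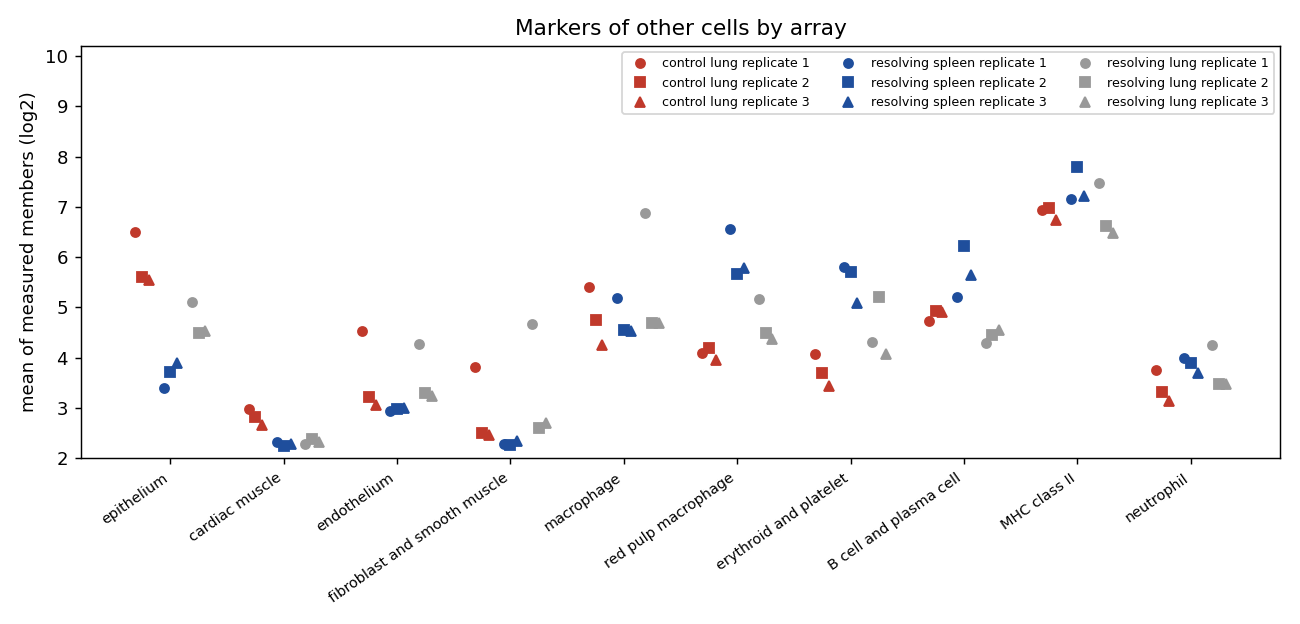
Mean log2 level of the measured markers of 10 other cell types in each array (symbols mark the replicate number, colours the group). Epithelial means were 5.55 to 6.49 in control lung and 3.39 to 3.90 in spleen, red pulp macrophage means ran the other way, and control lung replicate 1 was highest of its group for endothelium.

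Within the Treg core list, 2 of 15 measured genes rose (13.3%) and 3 fell (20%), against 6.27% and 6.95% of bright genes. Ctla4, the inhibitory receptor through which Tregs restrain antigen-presenting cells, was measured at 10.23, 10.37 and 10.24 in control lung and at 9.35, 9.11 and 9.28 in spleen, a difference of 1.04 ± 0.08 (2.05-fold; adjusted p = 0.000443). Every lung array was above every spleen array. Itgae, the CD103 integrin chain that binds E-cadherin on epithelium, rose by 1.16. Izumo1r, the folate receptor 4 used to mark Tregs, stood at 8.17, 8.50 and 8.17 against 9.26, 9.46 and 9.61 and fell by 1.17. The interleukin-2 receptor chains Il2ra (-0.37) and Il2rb (-0.24) fell by less, and their calls were lost in 7 and 8 of the 9 fits (adjusted p up to 0.124 and 0.13). Ikzf2 (Helios), Nrp1, Entpd1 and Nt5e, which also mark Tregs, had differences of 0.09, 0.14, -0.19 and 0.10 that did not pass. With the 6 compared arrays alone, 4 genes of the list rose and 2 fell.

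Tissue Treg transcription factors gave 6 rises (31.6%) and 0 falls among 19 measured genes, against 6.27% and 6.95% of bright genes. The list's median difference was 0.43. Nfil3, a basic leucine zipper factor, was measured at 7.70, 7.47 and 7.98 in control lung and at 5.42, 5.99 and 5.63 in spleen, a difference of 2.04 ± 0.17 (4.10-fold; adjusted p = 0.000751). Bhlhe40, a repressor active in tissue-resident T cells, rose by 1.58, from 7.56, 7.97 and 7.54 in spleen to 9.39, 9.26 and 9.15. For both genes the groups were clearly apart. Hif1a, the oxygen-sensing factor, rose by 0.57, and the nuclear receptor Rora rose from below the dim level by at least 0.10. Ahr, a receptor for aryl hydrocarbons, and Runx3, a factor of cytotoxic and resident lymphocytes, had differences of 0.69 and 0.56 whose calls were lost in 7 and 8 of 9 fits (adjusted p up to 0.116 and 0.156). Batf at -0.27 (adjusted p = 0.55), Irf4 at -0.01 (0.99), Gata3 at 0.30 (0.08) and Prdm1 at 0.68 (0.17) did not pass. Prdm1 passed with the 6 compared arrays alone (adjusted p = 0.00756). With array weights both Prdm1 (0.0484) and Gata3 (0.0426) passed, and without resolving lung replicate 1 they did so too (0.00291 and 0.0314).

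Among effector and repair genes, 6 of 22 rose (27.3%) and 2 fell (9.09%), against 6.27% and 6.95% of bright genes. The list's median was 0.60. Areg, the epithelial growth factor amphiregulin, was measured at 7.95, 8.14 and 8.23 in control lung and at 5.19, 5.38 and 4.20 in spleen, a difference of 3.18 ± 0.35 (9.08-fold; adjusted p = 0.00189). The lung arrays lay within 0.3 of each other and above all spleen arrays. In resolving lung Areg stood at 8.82, 8.23 and 7.71, and the part of other cells in its level was not tested. Lmna, the nuclear lamin A, rose by 2.13. Gzmb, a granule protease, stood at 8.14, 8.09 and 8.48 against 7.02, 7.47 and 7.05, with a call that was lost in 5 of 9 fits (adjusted p up to 0.102). The interleukin-10 gene Il10 had a difference of 1.12 that did not pass (adjusted p = 0.19). Cst7, the cysteine protease inhibitor cystatin F, went the other way: it stood at 6.18, 6.49 and 6.42 in control lung and at 8.12, 8.46 and 8.18 in spleen, a fall of 1.89 with no overlap. With the 6 compared arrays alone, 9 genes of the list rose and 4 fell.

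Cytokine receptors split in direction, with 6 rises (22.2%) and 4 falls (14.8%) among 27 measured receptor and SOCS genes. Of bright genes 6.27% rose and 6.95% fell. Il1rl1, which encodes the interleukin-33 receptor ST2, was measured at 9.59, 9.50 and 9.56 in control lung and at 7.14, 7.84 and 7.54 in spleen, a difference of 2.04 ± 0.17 (4.12-fold; adjusted p = 0.000675). Its 3 lung values were nearly equal and all higher than in spleen. Il18rap, a chain of the interleukin-18 receptor, rose by 0.99 from 5.77, 5.81 and 5.92 to 6.68, 6.84 and 6.95. The interferon receptor chains Ifngr1 (0.87) and Ifnar1 (0.71) rose as well. Socs1, an inhibitor of cytokine signalling, fell by 1.32, from 6.04, 5.61 and 5.83 in spleen to 4.39, 4.70 and 4.42. Il27ra, the interleukin-27 receptor, fell by 0.61.

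Receptors for positioning in tissue moved mostly upward. Of 24 chemokine and lipid attractant receptors, 4 rose (16.7%) and 1 fell (4.17%), against 6.27% and 6.95% of bright genes. Their median was 0.51. Cxcr4, the receptor for Cxcl12, was measured at 11.01, 10.77 and 10.99 in control lung and at 9.43, 8.89 and 9.11 in spleen, a difference of 1.78 ± 0.17 (3.43-fold; adjusted p = 0.00119). Ccr2, a receptor for monocyte chemoattractants, rose by 1.31 from 7.53, 7.89 and 7.54 to 8.98, 8.87 and 9.03. P2ry10, a lysophospholipid receptor, rose by 1.36. Ccr4 (0.83, adjusted p = 0.052) and Ccr8 (0.61, 0.37), which guide Tregs to skin and inflamed tissue, did not pass, but both did with the 6 compared arrays alone (0.041 and 0.0228), where 8 genes of the list rose and 1 fell. Among 21 integrin and adhesion genes 5 rose (23.8%) and 1 fell (4.76%), with 6 and 2 in that fit. Besides Itgae, the chains Itgam (1.33) and Itgb3 (0.79) rose in every fit.

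Resting and lymphoid Treg genes gave counts that depended on the fit. Of 21 measured, 0 rose and 2 fell (9.52%), against 6.27% and 6.95% of bright genes. The list's median was 0.00, while with the 6 compared arrays alone 4 rose and 4 fell. In resolving lung replicate 1 the mean over these genes was 7.28, against 8.35 and 8.56 in the other resolving lung arrays. Id3, an inhibitor of E proteins, was measured at 5.72, 5.37 and 5.04 in control lung and at 7.13, 7.07 and 6.60 in spleen, a fall of 1.56 ± 0.19 (adjusted p = 0.00287). Cxcr5, the receptor that guides cells into B cell follicles, stood at 6.90, 7.46 and 7.20 against 8.26, 8.70 and 8.46 and fell by 1.29, beside the B cell markers that were also lower in lung. In both genes the lung arrays lay below all spleen arrays. The lymph node homing receptor Ccr7 (1.42, adjusted p = 0.078) and the factors Tcf7 (-0.16, 0.90) and Klf2 (0.61, 0.56) did not pass. With the 6 compared arrays alone Ccr7 (adjusted p = 0.00233) and Klf2 (0.0494) passed, both upward, and Tcf7 (0.181) did not. Dtx1, a Notch pathway ubiquitin ligase outside these lists, fell by 1.50. Lta (lymphotoxin alpha) stood at 4.95, 5.37 and 4.97 against 6.90, 6.75 and 6.83 and fell by 1.73, and Ltb (lymphotoxin beta) fell by 0.73. Of other ligands of the tumour necrosis factor family, Tnf (-1.01, adjusted p = 0.226), Tnfsf8 (0.10, 0.955) and Cd40lg (0.03, 0.96) did not pass.

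Checkpoint and costimulatory receptors were split as well, with 3 rises (13.6%) and 5 falls (22.7%) in 22, against 6.27% and 6.95% of bright genes. Icos, a costimulatory receptor of effector Tregs, was measured at 10.78, 10.79 and 10.88 in control lung and at 9.57, 9.78 and 9.76 in spleen, a difference of 1.11 ± 0.10 (2.16-fold; adjusted p = 0.000775). Cd274, which encodes PD-L1, rose by 0.65. Tnfsf14, the ligand LIGHT, fell by 1.11. Lag3, an inhibitory receptor for MHC class II, stood at 4.56, 4.11 and 4.84 against 5.73, 6.25 and 6.00, and its fall of 1.49 was lost in 4 of 9 fits (adjusted p up to 0.0744). The receptors Pdcd1 (0.36, adjusted p = 0.69), Tigit (0.66, 0.16) and Tnfrsf4 (0.48, 0.23) did not pass. With the 6 compared arrays alone Tigit (0.0202) and Tnfrsf4 (0.0466) passed, and 6 genes of the list rose and 6 fell.

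**Figure D3:**
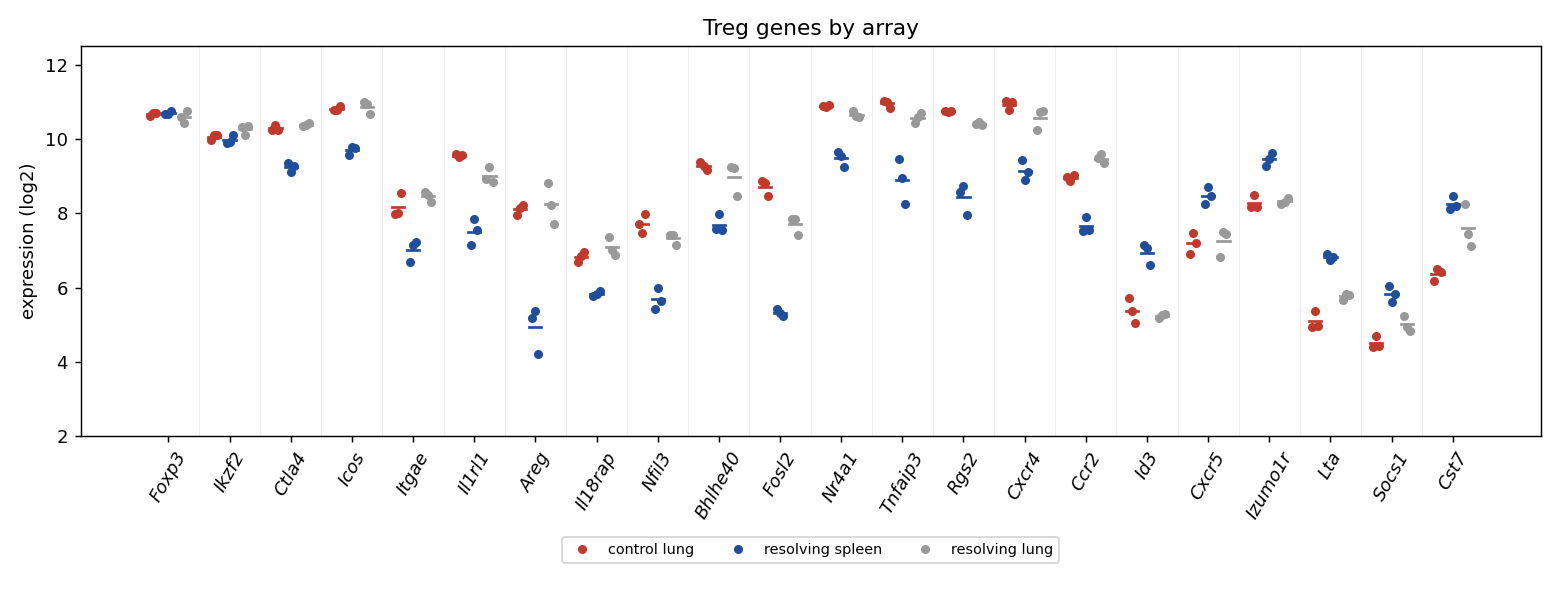
Log2 expression of 22 Treg genes in each array (points) with group means (bars), for control lung, resolving spleen and resolving lung. Foxp3 is level across the groups, Areg, Il1rl1, Fosl2 and Rgs2 are higher in all control lung arrays than in any spleen array, and Id3, Cxcr5, Lta, Socs1 and Cst7 are lower.

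Transcripts of early activation gave the largest shares of calls among the Treg lists. Of 27 immediate early phosphatase and RNA regulator genes 14 rose and 1 fell, and of 15 genes of the AP-1, Egr and Nr4a families 6 rose and 2 fell, against 6.27% and 6.95% of all bright genes. Fosl2, an AP-1 subunit, was measured at 8.87, 8.82 and 8.46 in control lung and at 5.42, 5.31 and 5.24 in spleen, a difference of 3.39 ± 0.15 (10.5-fold; adjusted p = 0.000192). Lung and spleen arrays were far apart, with little spread within either group. Atf3, a stress-induced factor, rose by 2.96, Fosb by 1.72, Crem, a cyclic AMP responsive factor, by 1.52, the orphan nuclear receptor Nr4a1 by 1.41 and Junb by 1.11. Egr3 and Egr2, which restrain T cell activation, ran against the rest at -2.28 and -1.79, with calls lost in 4 and 6 of 9 fits (adjusted p up to 0.0635 and 0.112). Jun (0.17) and Egr1 (-1.13, adjusted p = 0.15) did not pass.

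Feedback inhibitors of signalling were among the rises. Rgs2, which limits G protein signalling, was measured at 10.75, 10.73 and 10.75 in control lung and at 8.58, 8.74 and 7.96 in spleen, a difference of 2.32 ± 0.17 (4.98-fold; adjusted p = 0.000443). The MAP kinase phosphatases Dusp10 (2.46), Dusp4 (2.42) and Dusp1 (1.06) rose. Dusp2, of the same family, was lower at -0.31 (adjusted p = 0.0371), a call lost in 7 of 9 fits (up to 0.112). Dusp6 (-0.75, adjusted p = 0.061) did not pass, but did with the 6 compared arrays alone (0.0169), so that 2 genes of the immediate early list fell there. The clock gene Per1 rose by 1.85 and the insulin receptor substrate Irs2 by 1.64. Of 19 NF-kB genes 7 rose (36.8%) and 1, Ltb, fell (5.26%), against 6.27% and 6.95% of bright genes. Tnfaip3, which encodes the NF-kB inhibitor A20, stood between 10.84 and 11.02 in control lung against 9.47, 8.94 and 8.24 in spleen, a rise of 2.07 with no overlap. Birc3 (0.76) and Birc2 (0.65), ubiquitin ligases of the pathway, and Nfkbiz (0.87) rose. The subunit Rel had a difference of 0.65 whose call was lost without spleen replicate 3 (adjusted p = 0.0513), while Nfkb1 (0.06) and Rela (-0.07) did not pass. Since enzymes were used on the lungs alone, dissociation cannot be told apart from organ in these genes.

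Stretches before the start of some of these genes hold the cyclic AMP response element, whose letters are TGACGTCA on either strand. The motif was chosen after the values were seen. In windows from 250 bases before to 50 after the annotated start, it was found in 2.65% of the 16044 genes with a promoter sequence, in 3.78% of 5875 bright genes, in 22 of 364 bright genes that rose (6.04%) and in 10 of 413 that fell (2.42%). Of the bright genes at least 2-fold higher, 9 of 114 held it (7.89%), and of those at least 2-fold lower 0 of 52. The AP-1 letters TGANTCA, read on both strands and sharing no match with the first motif, were in 5.43% of bright genes, 5.49% of those that rose and 5.08% of those that fell. The kappaB motif of NF-kB and the E-box, another short motif, were searched in the same windows. KappaB was in 2.04% of bright genes, 3.02% of those that rose and 3.15% of those that fell. The E-box was in 12.3%, 11.3% and 12.1% of the same sets. Of bright genes at least 2-fold higher, 4.39% held kappaB, 7.89% the E-box and 7.02% AP-1. Of those at least 2-fold lower, 1.92%, 1.92% and 7.69% did. These shares were not tested. A match describes the letters and is no evidence of a bound factor. The 3 promoters below, from RefSeq on GRCm38.p6, belong to genes of the lists above and are shown up to the base before the start, with the motif in capitals: Areg (chr5:91139349-91139598, plus strand), Dusp1 (chr17:26508473-26508722, minus strand) and Ppp1r15a (chr7:45526269-45526518, minus strand), the last a phosphatase subunit with a difference of 1.14 that was lost in 5 of 9 fits (adjusted p up to 0.0896). Counted from the start, the motif began 61, 143 and 12 bases upstream.
Areg: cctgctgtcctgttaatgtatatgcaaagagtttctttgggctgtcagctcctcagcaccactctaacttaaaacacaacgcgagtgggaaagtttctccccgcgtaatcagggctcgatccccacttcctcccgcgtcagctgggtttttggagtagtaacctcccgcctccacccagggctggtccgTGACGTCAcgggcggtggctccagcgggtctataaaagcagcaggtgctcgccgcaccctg
Dusp1: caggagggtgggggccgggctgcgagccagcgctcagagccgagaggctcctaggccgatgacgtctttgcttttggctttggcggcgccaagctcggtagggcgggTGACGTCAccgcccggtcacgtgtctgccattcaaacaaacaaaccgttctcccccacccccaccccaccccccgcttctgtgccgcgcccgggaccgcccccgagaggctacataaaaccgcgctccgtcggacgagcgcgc
Ppp1r15a: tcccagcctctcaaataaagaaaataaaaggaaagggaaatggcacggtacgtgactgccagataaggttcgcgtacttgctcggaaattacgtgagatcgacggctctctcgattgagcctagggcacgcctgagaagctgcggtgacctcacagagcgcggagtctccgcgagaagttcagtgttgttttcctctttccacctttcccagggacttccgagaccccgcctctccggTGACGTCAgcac

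Genes of microRNA precursors were also measured, and 7 of 537 rose and 2 fell, against 2.67% and 3.49% of all genes. Among the 40 bright ones 5 rose and 1 fell, against 6.27% and 6.95% of bright genes. Mir27a was measured at 5.90, 6.70 and 6.14 in control lung and at 4.43, 4.50 and 4.49 in spleen, a difference of 1.78 ± 0.35 (adjusted p = 0.0215). Mir23a, which lies with Mir27a and Mir24-2 within 404 bases of chromosome 8, stood at 3.97, 5.07 and 4.71 against 3.12, 3.24 and 2.63. For both genes the groups did not overlap, and both calls were lost in 5 of 9 fits (adjusted p up to 0.0741 and 0.0912). Mir24-2 was below the dim level throughout. Mir212 had a difference of 0.99, lost in 3 of 9 fits (up to 0.0693). Mir342 stood at 2.52, 2.78 and 2.72 in control lung and at 3.69, 3.66 and 4.24 in spleen and was lower in every fit (adjusted p = 0.00396). The control lung values of Mir342 and the spleen values of Mir23a lay below the dim level, so only a lower limit of these differences can be read. These rows do not separate the arms of a precursor, and they were named after their values were seen. The 3p arms from RefSeq are shown with the seed, bases 2 to 8, in capitals; the 4 seeds differ.
mmu-miR-27a-3p: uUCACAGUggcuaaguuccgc
mmu-miR-23a-3p: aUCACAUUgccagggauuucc
mmu-miR-212-3p: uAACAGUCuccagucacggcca
mmu-miR-342-3p: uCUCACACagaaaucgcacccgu

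Calls among proliferation, cytoskeletal and cytotoxic genes lay upward, where 6.27% of all bright genes rose and 6.95% fell. Of 29 cell cycle genes 13 rose and 0 fell, and 29 of 29 differences were above 0 (median 0.70). Cenpf, a kinetochore protein, was measured at 5.91, 6.19 and 6.48 in control lung and at 4.95, 5.01 and 5.13 in spleen, a difference of 1.16 ± 0.13 (adjusted p = 0.00226). Top2a, a topoisomerase of dividing cells, rose by 1.10 and the kinetochore motor Cenpe by 1.01, while Mki67 (0.88) was lost in 3 of 9 fits (adjusted p up to 0.0652). The replication genes Mcm2 (0.11), Mcm5 (0.42) and Mcm7 (0.08) did not pass. Of these 13 calls 4 held in all fits. Cdkn1a, the cell cycle inhibitor p21, rose too, by 2.60, from 5.30, 5.91 and 5.16 to 8.26, 7.94 and 7.98.

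Of 20 S100, annexin and cytoskeletal genes 9 rose (45%) and 0 fell, and 5 of these calls held in all fits. Emp1, a membrane protein, rose by 2.25, the annexins Anxa1 and Anxa2 by 1.52 and 1.16, and the tubulin Tubb2a by 1.87. The annexin Anxa1 stood at 6.67, 6.57 and 6.58 in control lung and at 5.32, 5.44 and 4.51 in spleen, with no overlap. Among 13 cytotoxic and killer receptor genes 3 rose (23.1%) and 0 fell, with a median of 0.20, and 1 of these calls held in all fits. Gzma, a granule protease, rose by 1.32, whereas the pore-forming Prf1 (0.20, adjusted p = 0.45) and the CD8 T cell marker Cd8a (0.13, 0.95) did not pass.

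Few glycolysis and interferon genes passed, while calls among lipid and cholesterol genes lay downward. With limma, 0 of 14 glycolysis genes passed, 1 had an unadjusted p under 0.05 and passed with the 6 compared arrays alone, and the median was 0.00. Of 22 lipid and cholesterol genes 0 rose and 4 fell (18.2%, against 6.95% of bright genes), with the sterol enzyme Fdft1 (-0.42) lower in every fit. Dgat1, which makes triglycerides and stands outside that list, was measured at 9.18, 8.71 and 8.90 in control lung and at 6.28, 6.33 and 6.27 in spleen, a rise of 2.64 ± 0.18 (adjusted p = 0.000443). Of 22 interferon-stimulated genes 0 rose and 2 fell (9.09%, near the 6.95% of bright genes). These were Ifit2 (-0.83) and Ifih1 (-0.44), with calls lost in 5 and 7 of 9 fits (adjusted p up to 0.0946 and 0.152). With the 6 compared arrays alone 1 interferon gene rose and 5 fell. Of 19 heat shock and unfolded protein genes 2 rose (10.5%) and 1 fell (5.26%), against 6.27% and 6.95% of bright genes. The chaperones Hspa1a (0.42, adjusted p = 0.67) and Hsph1 (0.03, 0.97) did not pass.

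The remaining large rises among bright genes were Vps37b, a subunit of the endosomal sorting machinery, at 10.58, 10.31 and 10.16 in control lung and 7.35, 6.97 and 6.87 in spleen, Ramp3, a partner of the calcitonin receptor family (3.68), and Gprc5a, a retinoic acid induced receptor of lung epithelium (4.00). All 3 were apart from spleen in every array. The remaining large falls included Gucy1a1, a subunit of soluble guanylate cyclase (-1.72), and the methyltransferase Smyd2 (-1.55), with Adgre4, a receptor of myeloid cells (-1.71), and Ifit1bl1 (-1.48) lost in 7 and 6 of 9 fits (adjusted p up to 0.13 and 0.11). Among genes with a mean below 5, the largest rises were of the complement gene Hc (at least 3.06), the lamellar body protein Lamp3 (at least 2.82), the itaconate synthase Acod1 (at least 1.84) and the surfactant protein Sftpd (at least 2.24), besides Lyz1. The fall of the erythrocyte membrane gene Ermap was lost in 5 of 9 fits (adjusted p up to 0.0809).

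**Figure D4:**
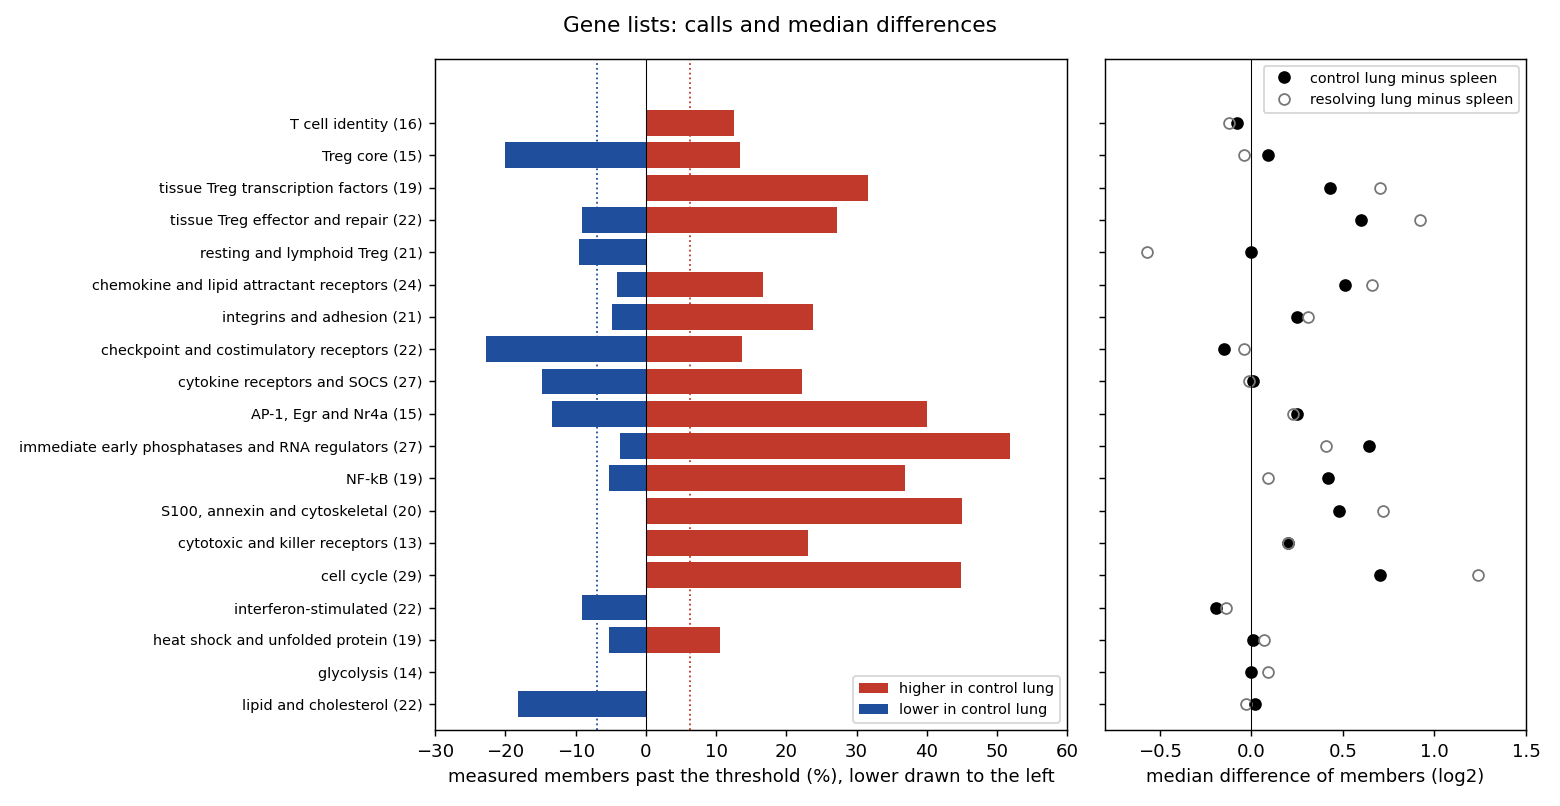
Left, share of the measured members of each gene list (number in brackets) that were higher (red, to the right) or lower (blue, to the left) in control lung at an adjusted p under 0.05, with dotted lines at the shares of all bright genes (6.27% and 6.95%). Right, median log2 difference of the members from spleen for control lung (filled) and resolving lung (open); immediate early genes have 14 rises in 27, and glycolysis genes none in 14.

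Resolving lung offers a second lung group whose mice, like those of the spleens, had received lipopolysaccharide. Both lung groups are set against the same spleen arrays, so their values are given side by side, and the 2 lungs were compared directly. Of all genes 96 (0.457%) differed between the lungs, 68 lower (0.323%) and 28 higher (0.133%) in resolving lung. These counts moved widely with 1 array left out, from 3 lower and 1 higher without spleen replicate 2 to 122 lower and 90 higher without resolving lung replicate 3. Among the 466 bright genes that were higher in control lung than in spleen, 47 were lower and 0 higher in resolving than in control lung. Among the 517 bright genes that were lower, 9 were higher and 0 lower. Since the same control lung arrays chose these genes, such a pull toward spleen carries no test here. The median differences from spleen were 0.81 in control and 0.56 in resolving lung for the first set, and -0.61 and -0.42 for the second. Medians of whole gene lists, in control and then resolving lung, ran both ways. They were 0.43 and 0.70 for tissue Treg transcription factors, 0.60 and 0.92 for effector and repair genes, and 0.48 and 0.72 for S100, annexin and cytoskeletal genes. For cell cycle genes they were 0.70 and 1.24. Immediate early genes stood at 0.64 and 0.41, NF-kB genes at 0.42 and 0.09 and epithelial markers at 0.96 and 0.41. These medians were not tested.

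Treg genes with similar differences in both lungs included Areg, at 3.18 in control and 3.33 in resolving lung, Cdkn1a (2.60 and 2.61), Ctla4 (1.04 and 1.14), Icos (1.11 and 1.16), Id3 (-1.56 and -1.70), Izumo1r (-1.17 and -1.13) and Dusp1 (1.06 and 1.06). Their adjusted p between the lungs lay between 0.61 and 1, which does not show that the lungs were alike. For Irs2 the difference from spleen was 1.64 in control lung and -0.21 in resolving lung, and the lungs differed by 1.85 (adjusted p = 0.00967). Ifnar1 stood at 0.71 and -0.01, Rel at 0.65 and -0.05, Birc3 at 0.76 and 0.24 and Fosl2 at 3.39 and 2.38. Each of these genes was lower in resolving than in control lung by the direct test, as were the epithelial genes Sftpb (5.54 and 2.74) and Slc34a2 (4.92 and 1.97). With each array left out in turn the call of Irs2 held in all 9 fits (adjusted p up to 0.0474). The calls of Rel and Sftpb were lost in 9 of 9, that of Fosl2 in 8, and those of Ifnar1, Birc3 and Slc34a2 in 7.

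**Figure D5:**
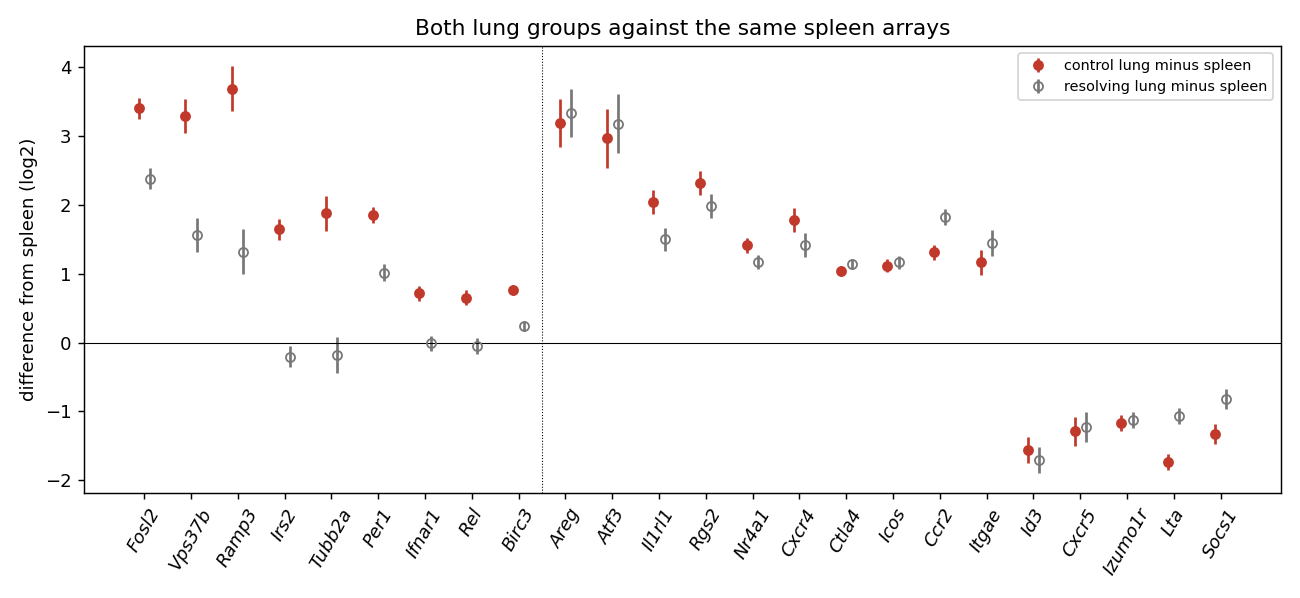
Difference from spleen (log2, with SE from the fit) of 24 Treg and signalling genes in control lung (filled) and resolving lung (open), both against the same 3 spleen arrays. Genes left of the dotted line differed between the lungs by the direct test over all 9 arrays, such as Irs2 at 1.64 and -0.21; genes right of it, such as Areg at 3.18 and 3.33, did not pass that test.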

How the data were processed

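RNA from sorted Tregs (225 ng of total RNA per sample) was measured on Mouse Gene 2.1 ST arrays (Affymetrix), 1 per sample. The values are log2 expression as deposited, in 9 columns of 31351 rows; Affymetrix Expression Console, RMA and Partek are named in the submitters' processing notes, with versions, order and genome build not given in the sources used here. RMA makes array distributions alike, so a shift shared by most genes is removed, and it compresses dim genes. The number of arrays limits the precision. The labels do not state that replicates were separate animals. Each p-value therefore reflects only the scatter among these samples, part of which may be technical.

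Rows were named through accessions in a RefSeq gene list (GRCm38.p6): 21057 matched 1 symbol and 10294 (32.8%) stayed unnamed. For 35 genes with several rows the brightest row was used, leaving 21022 genes. Groups came from the sample titles. All 9 arrays were fitted with limma 3.58.1 (lmFit and eBayes; R 4.3.3) with 3 groups and no block, and two-sided p-values were adjusted by Benjamini-Hochberg over all named genes, with a threshold of 0.05. An exact test of 3 against 3 arrays cannot go below 0.1 and was not used. The dim level was the 95th percentile of 915 olfactory receptor genes per array (3.32 to 3.52). The fit was tested on simulated data.

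Named genes were the 15 largest rises and falls among called bright genes with no overlap between the groups' arrays, the 5 largest of each among other genes above the dim level in the brighter group, Foxp3, Cd4, Il2ra and Ctla4, and members of 33 gene lists (597 genes, 547 measured). Predicted, Rik and receptor segment genes were left out, and some genes that the rule takes are not reported here. The comparison, members, lists and rule were chosen with earlier results of these data known. Gene lists are described by counts and medians, with no test. Motifs were searched with Python 3.11.15 and pandas 2.3.3, and figures drawn with matplotlib 3.10.9. Alternatives were other variance settings, array weights, a replicate block, centring, quantile normalization, gene filters, rows per gene, a fold minimum and each array left out.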

Additional observations from a re-analysis of the deposited data

Results flagged for a closer look

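Among the genes named here, 16 differed between control and resolving lung by the direct test, so that their differences from the same spleen arrays were unequal. Values are resolving minus control lung on the log2 scale. Of epithelial genes, Sftpa1 (-2.75), Sftpb (-2.80) and Slc34a2 (-2.94) were lower in resolving lung. The cardiac muscle genes Myl7 (-1.65) and Pln (-0.53) passed too. Myl7 lay between 3.69 and 4.34 in control lung and below the dim level in resolving lung, so that it fell by at least 0.50, and Pln lay below that level in every array, where no difference can be read. Among signalling and transcription genes Irs2 (-1.85), Fosl2 (-1.02), Per1 (-0.84), Ifnar1 (-0.72), Rel (-0.70), Birc3 (-0.53) and Rela (-0.35) were lower. So were the sorting subunit Vps37b (-1.73), the receptor partner Ramp3 (-2.37) and the tubulin Tubb2a (-2.05). The sterol enzyme Fdft1 (0.43) was higher. Of these genes, Rela was the one that did not pass between control lung and spleen, and its adjusted p between the lungs was 0.0498. With each array left out in turn, 1 of the 16 calls, that of Irs2, held in all 9 fits; the others were lost in 5 to 9 of them, with adjusted p of up to 0.144.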

How the results depend on the processing

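A fold minimum of 1.2 (limma's treat) left 200 genes higher and 169 lower in control lung, 169 and 116 of them bright. With 1 array left out, 306 to 788 genes were higher and 368 to 1005 lower, and among bright genes 258 to 643 and 240 to 723. The other alternatives kept each of these 4 counts within 1.5 times its value, and no named call reversed in any. With the 6 compared arrays fitted alone, the calls of Scgb1a1 (adjusted p = 0.0621), Il2ra (0.0683), Il2rb (0.0604), Runx3 (0.0764), Hba-a2 (0.0579), Adgre4 (0.0775), Ifih1 (0.0766) and Ermap (0.0574), each also lost in some fits that left out 1 array, were lost; the cause was not tested. Between the lungs, for which alternatives were chosen after seeing the data, 1 to 90 genes were higher and 3 to 122 lower in resolving lung with 1 array left out, and array weights left 44 lower. Deviations of same-numbered control lung and spleen arrays correlated at 0.08, -0.06 and 0.05, and those of the 2 lungs at 0.29, 0.07 and 0.10, so the numbers were not taken to pair these groups. Resolving lung and spleen arrays, between which no call is given, correlated at 0.17, 0.13 and 0.16. With the replicate number as a block 501 genes were higher and 625 lower in control lung than in spleen, and 7 higher and 8 lower in resolving than in control lung, where Irs2 and Fosl2 passed of the 16 genes named. At an unadjusted p under 0.05, 3953 genes (18.8%) passed. Of the calls, 107 have only a lower limit because 1 group lay below the dim level, and 10546 genes lay below it in both groups, where no difference can be read.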

Other observations

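Zinc finger genes that passed the test were mostly lower in control lung Tregs. Of 378 measured genes with Zfp, Zkscan or Zscan symbols, many of which encode DNA-binding repressors, 3 were higher and 51 lower, against 2.67% and 3.49% of all genes. Among the 163 bright ones 2 were higher and 30 lower, with a median difference of -0.21 in control lung and -0.30 in resolving lung, each from the same spleen arrays. Zfp143, a transcriptional activator, was measured at 7.59, 7.84 and 7.69 in control lung and at 8.42, 8.33 and 8.41 in spleen (difference -0.68, adjusted p = 0.00211). Zfp7 stood at 5.47, 5.41 and 5.57 against 6.61, 6.17 and 6.44 (-0.92, adjusted p = 0.00235). Both held with each array left out, as did 13 of the 30 bright calls. The exceptions that were higher, Zfp36l2 (0.71), Zfp367 (0.91) and Zfp488 (0.43), lost their calls in 4, 5 and 4 of 9 fits and include an RNA-binding protein of another zinc finger class, Zfp36l2. This family was chosen after its values were seen.

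Ribosome biogenesis genes, chosen in the same way by symbol, gave 0 rises and 10 falls among 42, against 2.67% and 3.49% of all genes. Among the 35 bright ones 0 rose and 9 fell, against 6.27% and 6.95% of bright genes. Of 59 ribosomal protein genes and of 101 small nucleolar RNA genes 0 rose and 0 fell. Of 59 mitochondrial ribosomal protein genes 0 rose and 3 fell. Nop2, a nucleolar RNA methyltransferase, was measured at 6.97, 6.96 and 7.05 in control lung and at 7.95, 7.91 and 7.93 in spleen (difference -0.93, adjusted p = 0.000443). Of the 9 bright calls 4 held in all fits.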
